A study of Mus musculus with 9 samples.

Results

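The genes described here are the subunits of heterotrimeric G proteins and the regulators of G protein signalling (RGS proteins) in the mouse prefrontal cortex. They were taken by symbol from the deposited expression matrix: the genes named Gna, Gnb1 to Gnb5, Gng and Rgs followed by a number or letter, with 1 RGS gene not analysed here. Of 14444 genes with a row, 42 were members. Of 16 Gα symbols listed for the mouse 12 had a row, as did 4 of 5 Gβ, 10 of 12 Gγ and 16 of 20 RGS symbols. Total RNA from brain prefrontal cortex was sequenced after removal of ribosomal RNA with a stranded kit, in 9 libraries from mice 5 to 8 weeks after birth. There were 3 groups of 3 libraries: the wild type after saline, the Shank3 mutant after saline, and the same mutant after UNC0642. UNC0642, an inhibitor of the histone methyltransferases EHMT1 and EHMT2, was injected intraperitoneally at 1 mg/kg once per day for 3 days. The labels give no Shank3 allele or zygosity and do not tie the libraries to single animals, so the p-values rest on a spread from library to library that may be purely technical. The series title names EHMT1 and EHMT2 as targets in Shank3-deficient mice, and the comparisons ask how the members differed between genotypes and between treatments of the mutant.

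A G protein-coupled receptor that binds its ligand makes the α subunit of a heterotrimeric G protein exchange GDP for GTP, after which Gα and the βγ dimer act on separate effectors. Gs stimulates and Gi inhibits adenylyl cyclase, Gq and G11 activate phospholipase C-β, and free βγ opens GIRK potassium channels and closes calcium channels in neurons. RGS proteins speed the hydrolysis of GTP by Gα and so shorten the signal, and in the cortex they set how long dopamine, noradrenaline, acetylcholine, opioid and metabotropic glutamate receptors act.

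The deposited values were named CPM by the submitters, but they were not plain CPM. For every gene, the mean log2 value over the wild-type libraries with UNC0642 libraries 2 and 3 equalled that over the saline-treated mutant libraries with UNC0642 library 1, to within 2.5e-09. A difference between the wild type and the saline-treated mutant in these values is therefore tied to how the UNC0642 libraries deviate. Whole reads could be recovered for 14444 of 14444 genes, 12035098 to 16165483 reads per library. RPM are the recovered reads scaled to 1000000 per library. The library values below are the deposited ones unless RPM is named, and for many members only the deposited ones are given by library. In the recovered reads the first principal component carried 53.1% of the variance and divided the libraries in another way: UNC0642 library 3 lay with the wild-type libraries, and UNC0642 libraries 1 and 2 lay with the saline-treated mutant libraries. Markers of cortical excitatory neurons summed to 6027 to 7140 deposited units and those of the striatum, a neighbouring region, to 222 to 264, with Drd2 between 0.753 and 2.84. Wild-type library 3 had the lowest sum of neuronal markers, 4509 against 5053 to 6505 in the other libraries, and the highest sum of astrocyte markers, 5280. Shank3 itself stood at 308, 315 and 355 in the wild type, 333, 344 and 318 in the saline-treated mutant and 288, 303 and 322 in the UNC0642-treated mutant, in deposited units. The RPM of Shank3 were 295, 309 and 357 in the wild type, 337, 349 and 321 in the saline-treated mutant and 294, 298 and 319 in the UNC0642-treated mutant, and the genotypes overlapped there too. In tissue RNA, fewer cells of a type and less RNA per cell cannot be told apart.

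Levels were compared between genes as RPM per kilobase of exon, averaged over the 9 libraries. The members were abundant: their median level was 14.5 against 5.59 for the 13895 genes with a length, and 34 of 42 members lay above the latter. Rgs4 had the highest level of all members and Gnb1 the next with the union of exons as the length, but with the longest transcript the order was Gnas at 347, Gnb1 at 229 and Rgs4 at 186. On the first scale Rgs13, Gngt2 and Gna15 stood at or near 1 or below. The 4 highest members on that scale, Rgs4, Gnb1, Gng3 and Gnas, came from 4 different roles, as the plot of levels by role shows.

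**Figure D1:**
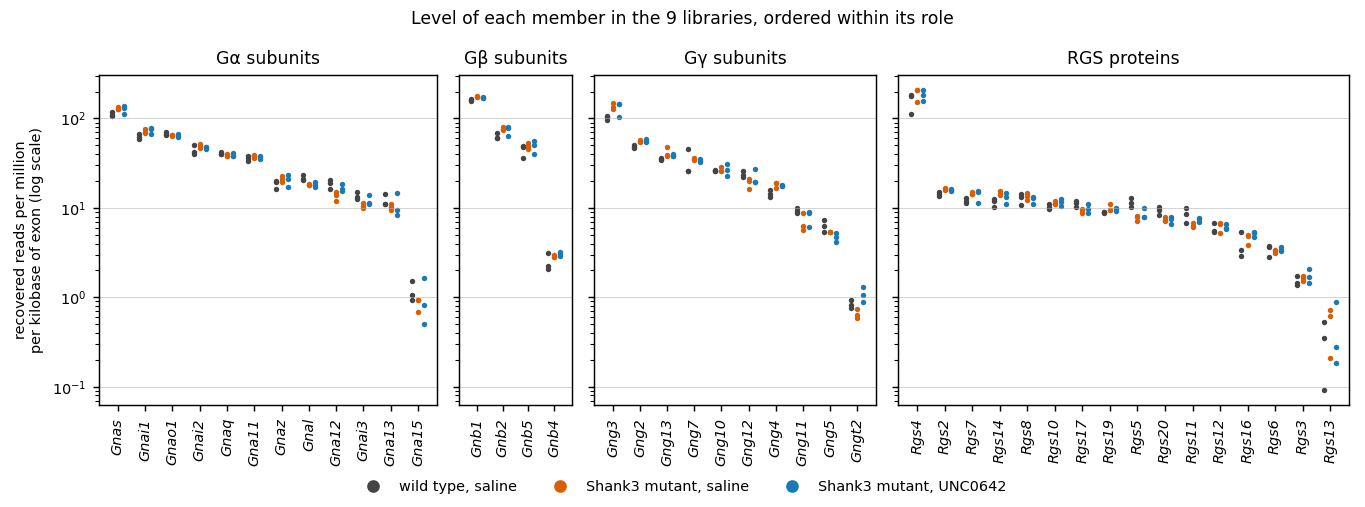
Level of each of the 42 members as RPM per kilobase of exon (log scale), 1 point per library, coloured by group and ordered by mean level within each role. Rgs4 stands above every other RGS gene in all 9 libraries, while most neighbours further down the order overlap.

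Among the Gα genes, Gnas, which encodes the stimulatory subunit Gαs, had the highest level, 122 ± 11.3 (SD, n = 9), above every other Gα gene in every library. Of its exon bases 22.0% overlap genes on the other strand, Nespas among them, and the strand setting used for counting was not given in the sources used here. Gnai1, which encodes an inhibitory subunit, followed at 69.7 ± 6.76 (SD, n = 9) and Gnao1, which encodes Gαo, the main α subunit of brain membranes, at 65.6 ± 2.66 (SD, n = 9). The ranges of these last 2 genes overlapped, 59.0 to 79.1 for Gnai1 and 62.1 to 70.6 for Gnao1. With the longest transcript Gnao1 stood at 131 and Gnai1 at 69.7, below Gnai2 at 79.96, so that the order of these genes depends on the length used. By class, the Gi, Go and Gz genes together made up 46.5% (range 46.1 to 47.0%) of the summed Gα level, the Gs class of Gnas and Gnal 30.7% (range 28.7 to 32.3%), the Gq and G11 class 16.8% (range 15.7 to 17.6%) and the G12 and G13 class 5.98% (range 4.84 to 7.64%). With the longest transcript the order of the first 2 classes reversed, with the Gs class at 47.1%, the Gi, Go and Gz genes at 38.5%, the Gq and G11 class at 10.9% and the G12 and G13 class at 3.45%. With the union of exons, the Gi, Go and Gz share varied least between libraries, and the G12 and G13 share was highest in wild-type library 3.

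In deposited units, Gnas stood at 1438, 1275 and 1277 in the wild type, 1344, 1326 and 1408 in the saline-treated mutant and 1421, 1566 and 1336 in the UNC0642-treated mutant. The highest deposited value was in UNC0642 library 2 and the lowest in wild-type library 2, and the groups overlapped. In RPM the highest was in UNC0642 library 1. The saline-treated mutant libraries there lay wholly above the wild-type libraries, at 1419 to 1497 against 1188 to 1309.5. The same held for Gnai1 in RPM, and for 20.2% of all genes. As deposited, Gnai1 stood at 227, 209 and 192 in the wild type, 212, 204 and 229 in the saline-treated mutant and 234, 252 and 221 in the UNC0642-treated mutant. Gnao1 stood at 753, 716 and 751 in the wild type, 717, 741 and 732 in the saline-treated mutant and 705, 673 and 728 in the UNC0642-treated mutant. Gnao1 varied little, with a coefficient of variation of 3.43% over the 9 libraries.

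Gnal encodes Gαolf, the α subunit that takes the place of Gαs in olfactory and striatal neurons, and its level per kilobase was 19.4 ± 1.89 (SD, n = 9), beside 20.0 ± 2.19 (SD, n = 9) for Gnaz. With the longest transcript they stood further apart, Gnal at 37.8 and Gnaz at 20.6. The deposited values of Gnal were 226, 216 and 239 in the wild type, 221, 214 and 218 in the saline-treated mutant and 205, 191 and 204 in the UNC0642-treated mutant. All 3 UNC0642 libraries lay below the other 6. The other Gα genes ran from Gnai2 at 46.9 ± 3.73 (SD, n = 9) through Gnaq, Gna11, Gna12, Gnai3 and Gna13 to Gna15, a Gq-class subunit known from blood cells, at 1.00 ± 0.372 (SD, n = 9).

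Gnb1 carried 58.2% (range 54.9 to 61.9%) of the summed Gβ level, at 168 ± 6.56 (SD, n = 9), and Gnb2 and Gnb5 followed at 71.1 ± 8.20 (SD, n = 9) and 47.5 ± 6.26 (SD, n = 9), each above the next in every library. Gβ1 and Gβ2 pair with many Gγ subunits, whereas Gβ5 is known as the obligate partner of the R7 class of RGS proteins. Gnb4 was the lowest, at 2.80 ± 0.384 (SD, n = 9). In deposited units, Gnb1 stood at 738, 696 and 684 in the wild type, 739, 726 and 721 in the saline-treated mutant and 696, 734 and 752 in the UNC0642-treated mutant. Its coefficient of variation, 3.26%, was the smallest of all members. Gnb2 stood at 257, 224 and 216 in the wild type, 233, 252 and 242 in the saline-treated mutant and 246, 293 and 232 in the UNC0642-treated mutant. Gnb5 stood at 168, 161 and 118 in the wild type, 153, 134 and 145 in the saline-treated mutant and 163, 169 and 132 in the UNC0642-treated mutant, lowest in wild-type library 3. In these units the groups overlapped for each of these 3 genes. In RPM the saline-treated mutant libraries lay wholly above the wild-type libraries for Gnb1, at 735 to 757 against 676 to 701. The same held for Gnb2, at 251 to 272 against 204 to 232, and for 20.2% of all genes. For Gnb5 these groups overlapped in RPM too.

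Gng3, which encodes a neuronal γ subunit, led its role at 123 ± 20.8 (SD, n = 9), followed by Gng2 at 53.6 ± 4.11 (SD, n = 9), Gng13 at 38.5 ± 3.84 (SD, n = 9), Gng7 at 34.0 ± 5.94 (SD, n = 9) and Gng10 at 26.5 ± 2.16 (SD, n = 9). Together the first 3 made up 65.4% (range 57.5 to 69.8%) of the summed Gγ level, least in wild-type library 3. Gng13, a γ subunit also known from taste cells, shares 51.6% of its exon bases with Chtf18 on the other strand. Gng3 shares 24.2% with Bscl2 and Gng2 20.4% with Gm48283 in the same way. How far this affects their levels is not known without the strand setting of the counting. Gng10 shares 72.0% with Gm20503 on its own strand, and how those reads were assigned was not given in the sources used here. In deposited units, Gng3 stood at 200.3, 191 and 176 in the wild type, 216, 198 and 189 in the saline-treated mutant and 211, 268 and 192 in the UNC0642-treated mutant, highest in UNC0642 library 2. Gng2 stood at 242, 218 and 217 in the wild type, 229, 235 and 240.0 in the saline-treated mutant and 242, 258 and 251 in the UNC0642-treated mutant, and the UNC0642 libraries were the 3 highest. Gng13 stood at 29.6, 30.2 and 28.0 in the wild type, 34.9, 28.4 and 28.1 in the saline-treated mutant and 29.4, 31.5 and 31.1 in the UNC0642-treated mutant, with overlapping groups. In RPM the saline-treated mutant libraries lay wholly above the wild-type libraries for Gng3, Gng2 and Gng13, as for 20.2% of all genes.

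Gng7, the γ subunit that pairs with Gαolf in the striatum, stood at 105, 102 and 177 in the wild type, 131, 128 and 128 in the saline-treated mutant and 123, 128 and 139 in the UNC0642-treated mutant, in deposited units. Wild-type library 3 lay far above the other 8 libraries, whose range was 102 to 139. The sum of 8 striatal markers was lowest in that same library, at 222, against 227 to 264 in the others. These markers did not move together. In wild-type library 3 Adora2a was at its highest, 3.96, and Drd2 stood at 2.77 against a median of 1.22. Ppp1r1b stood at 54.2 there, against a median of 62.0. The part of striatal tissue in the Gng7 values was not tested. Gng11, known from endothelial cells, was low, 7.22, 7.46 and 7.89 in the wild type, 6.29, 9.73 and 7.03 in the saline-treated mutant and 6.79, 7.04 and 7.19 in the UNC0642-treated mutant. Its highest value was in saline-treated mutant library 2 and all groups overlapped except the UNC0642 against the wild-type libraries. Gng5 and Gngt2 closed the order, at 5.46 ± 0.886 (SD, n = 9) and 0.856 ± 0.221 (SD, n = 9) per kilobase.

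Rgs4, an RGS protein of the R4 class that acts on Gαi, Gαo and Gαq and is known from cortical pyramidal neurons, had a level of 177 ± 31.2 (SD, n = 9), which was 57.9% (range 47.4 to 63.0%) of the summed RGS level. Rgs2, which prefers Gαq and is induced by neuronal activity, came next at 15.5 ± 1.04 (SD, n = 9). Rgs7, an R7 protein that binds Gβ5, stood at 13.5 ± 1.58 (SD, n = 9), and Rgs14, an R12 protein known from hippocampal area CA2, at 13.04 ± 1.76 (SD, n = 9). These 3 genes overlapped in range. The R4 class made up 72.6% (range 65.7 to 75.6%) of the RGS level, R12 10.05% (range 8.42 to 12.48%), RZ 9.24% (range 7.66 to 11.6%) and the 3 R7 genes counted here 8.08% (range 7.002 to 10.2%). With the longest transcript as the length in place of the union of exons, 10 of the 12 members that led their roles stayed, Gnai2 and Rgs14 entered, and Gnai1 and Rgs2 left. With that length Rgs4 made up 49.6% of the summed RGS level and the R4 class 63.7%.

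Rgs4 varied more than most abundant members. Its deposited values were 634, 607 and 377 in the wild type, 584, 436 and 598 in the saline-treated mutant and 579, 619.7 and 533 in the UNC0642-treated mutant. Wild-type library 3 was the lowest and saline-treated mutant library 2 the next lowest. The same libraries had the lowest and the third lowest sum of 6 neuronal markers, 4509 and 5156 deposited units. Their sums of excitatory markers were not low, at 6908 and 7140, the latter the highest of the 9 libraries. The part of these markers in the level of Rgs4 was not tested. As deposited, the group means were 539 ± 141, 539 ± 89.6 and 577 ± 43.2 (SD, n = 3 each), so that the spread within groups exceeded the differences between them. Before the adjustment between sets the means were 489 ± 119, 590 ± 96.8 and 564 ± 74.4 RPM (SD, n = 3 each), and the groups overlapped.

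In deposited units, Rgs2 was among the steadier genes, at 55.4, 52.1 and 55.7 in the wild type, 57.5, 57.1 and 54.9 in the saline-treated mutant and 56.6, 59.6 and 60.2 in the UNC0642-treated mutant. Its coefficient of variation was 6.69% in RPM, against 4.37% as deposited. Rgs7 stood at 86.2, 78.7 and 73.2 in the wild type, 79.6, 79.2 and 84.8 in the saline-treated mutant and 83.5, 99.8 and 73.6 in the UNC0642-treated mutant. Both genes had their lowest value in the wild type. Rgs10, an R12 protein known from microglia and neurons, stood at 18.1, 18.4 and 19.7 in the wild type, 19.7, 18.1 and 18.4 in the saline-treated mutant and 20.8, 21.0 and 18.9 in the UNC0642-treated mutant. Rgs14 stood at 60.4, 47.9 and 53.9 in the wild type, 60.5, 55.5 and 55.2 in the saline-treated mutant and 51.6, 67.4 and 50.7 in the UNC0642-treated mutant. As deposited, UNC0642 library 2 held the highest Rgs7, Rgs10 and Rgs14 values of the 9 libraries, and the groups overlapped for these 3 genes. In RPM the highest Rgs10 was in UNC0642 library 1 and the highest Rgs14 in saline-treated mutant library 1. There the saline-treated mutant libraries lay wholly above the wild-type libraries for Rgs2, Rgs7 and Rgs14, as for 20.2% of all genes.

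Rgs4 and Rgs5 are neighbours on chromosome 1 in the annotation and belong to the same R4 class, yet Rgs4 had a level of 177 per kilobase and Rgs5, known as a gene of pericytes, stood at 9.29 ± 1.97 (SD, n = 9) per kilobase. The 250 bases before their start sites are therefore set side by side, with those of Gng5, the member of smallest p in the drug comparison. The sequences are RefSeq's, on GRCm38.p6, for Rgs4 (chr1:169747643-169747892, minus strand), Rgs5 (chr1:169655251-169655500, plus strand) and Gng5 (chr3:146499586-146499835, plus strand). Each is written 5′ to 3′ in the direction of the gene. Capitals mark the TATA motif, whose letters searched were TATAAA. They also mark the CCAAT motif and the GC motif, of which the second was searched as GGGCGG. Both strands were searched, and a match on the opposite strand appears as its reverse complement.
Rgs4: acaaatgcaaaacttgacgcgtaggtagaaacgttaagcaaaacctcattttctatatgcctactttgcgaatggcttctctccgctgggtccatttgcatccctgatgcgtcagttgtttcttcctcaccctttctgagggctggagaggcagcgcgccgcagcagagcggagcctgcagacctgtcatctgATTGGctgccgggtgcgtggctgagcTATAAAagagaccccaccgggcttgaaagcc
Rgs5: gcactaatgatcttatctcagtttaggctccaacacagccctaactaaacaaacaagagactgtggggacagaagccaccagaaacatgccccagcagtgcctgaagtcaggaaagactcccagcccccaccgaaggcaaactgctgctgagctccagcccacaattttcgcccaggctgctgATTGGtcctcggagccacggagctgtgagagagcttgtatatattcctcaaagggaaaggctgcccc
Gng5: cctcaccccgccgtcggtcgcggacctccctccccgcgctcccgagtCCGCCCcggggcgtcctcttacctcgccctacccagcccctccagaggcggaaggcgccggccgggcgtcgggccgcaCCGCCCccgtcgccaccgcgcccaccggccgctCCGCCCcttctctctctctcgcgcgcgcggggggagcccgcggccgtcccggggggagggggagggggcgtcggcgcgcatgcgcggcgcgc
The Rgs4 window holds a TATAAA whose first base lies 31 bases before the start and a CCAAT box 57 bases before it. The Rgs5 window holds a CCAAT box 67 bases before the start and no TATAAA. Gng5 has 3 GGGCGG matches and 44 CpG dinucleotides, against 13 in the Rgs4 and 4 in the Rgs5 window. Of the 33 members with a window, TATAAA was in 4 (12.1%, against 6.29% of 10931 genes with a window), namely Gnas, Gnb5, Rgs3 and Rgs4. CCAAT was in 8 (24.2% against 35.9%), GGGCGG in 16 (48.5% against 58.5%) and at least 10 CpG in 24 (72.7% against 72.3%). The cyclic AMP response element TGACGTCA was in 0 of 33 (2.76% of genes), and its variant TGACGCAA also in 0 (0.823%). A match describes these letters only, and 1 start per gene was searched.

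The first comparison asks how the saline-treated Shank3 mutant differed from the wild type. In the deposited values no member differed beyond the threshold of an adjusted p under 0.05 (limma on log2 of value + 0.5, Benjamini-Hochberg over all genes): 0 of 42 were called, and 0 of 14444 genes (0%). The adjustment between sets ties this difference to the UNC0642 libraries, so that 0 calls do not show that the genotypes were alike. At an unadjusted p under 0.05 there were also 0 members, against 19 genes (0.132%). The median log2 difference of the members was 0.03, against 0.003 over all genes, with 25 above and 17 below 0. By role, 6 of 12 Gα, 3 of 4 Gβ, 7 of 10 Gγ and 9 of 16 RGS genes had the higher mean log2 value in the mutant. Only for Gng10 did the groups not overlap, with the mutant higher (2.38% of members, against 3.43% of all genes in either direction and 1.73% with the mutant higher).

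The member of smallest p was Rgs5, at 41.9, 45.2 and 50.04 in the wild type and 43.0, 41.6 and 37.9 in the saline-treated mutant. Its log2 difference was -0.16 (SE 0.11), and wild-type library 1 lay among the mutant libraries. Gng4, which encodes another γ subunit, stood at 52.5, 47.5 and 55.8 in the wild type and 59.98, 59.4 and 51.9 in the mutant, a difference of 0.13 (SE 0.10) with overlapping groups. Gng10 stood at 34.4, 33.2 and 33.5 in the wild type and 38.6, 35.1 and 35.2 in the mutant, the 3 mutant libraries above the 3 wild-type libraries, with a difference of 0.10 (SE 0.10). In RPM its groups overlapped, at 34.2, 33.7 and 34.9 in the wild type and 37.4, 34.0 and 33.9 in the mutant. Rgs16, an R4 protein, stood at 8.66, 13.4 and 7.04 in the wild type and 11.5, 11.2 and 9.06 in the mutant, a difference of 0.16 (SE 0.19). The wild-type libraries of Rgs16 spread over a wider range than the mutant ones and enclosed them. Gnb4, at 28.5, 30.5 and 40.6 in the wild type and 34.7, 36.1 and 34.6 in the mutant, differed by 0.10 (SE 0.12), and its highest value was that of wild-type library 3. Gng3 differed by 0.09 (SE 0.11). The adjusted p of each of these 6 genes was 1.

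Before the adjustment between sets the genotypes lay further apart. In RPM, the 3 saline-treated mutant libraries lay wholly above or below the 3 wild-type libraries for 21 of 42 members (50%, against 40.7% of all genes), 12 of them higher and 9 lower in the mutant (28.6% and 21.4%, against 20.2% and 20.5%). The members' median absolute log2 ratio of the group means was 0.224 in the reads and 0.0542 in the deposited values, and for 40 of 42 members the deposited one was the smaller. In a limma-voom fit to the recovered reads, 4 members (9.52%) were called at an adjusted p under 0.05, as were 1725 genes (11.9%). Gng3 and Gng4 rose and Gna12 and Rgs5 fell in the saline-treated mutant. With median-of-ratios factors 5 members were called (11.9%, against 12.4% of genes), Gnai3 being the fifth.

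Gng3 rose from 174, 169 and 159 RPM in the wild type to 242, 222 and 211 in the saline-treated mutant, a log2 difference of 0.42 (SE 0.11, adjusted p = 0.0348). Gng4 rose from 47.4, 43.9 and 52.9 to 64.1, 63.5 and 55.1, a difference of 0.34 (SE 0.09, adjusted p = 0.0368). For both γ subunits every mutant library exceeded every wild-type library. Gna12, which encodes an α subunit of the G12 and G13 class, fell from 55.5, 64.3 and 70.5 to 41.2, 48.1 and 51.4, by 0.43 (SE 0.11, adjusted p = 0.0336) on the log2 scale. Of its exon bases 13.3% overlap Amz1 on the other strand. Rgs5 fell from 47.0, 51.9 and 58.9 to 36.9, 35.7 and 32.3, by 0.59 (SE 0.11, adjusted p = 0.0199), the largest of the 4 differences. Both genes were lower in all 3 mutant libraries than in any wild-type library.

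These reads also carry the division of the libraries described above, which runs across the UNC0642 group. The division was drawn from these same reads, so that counts of genes apart across it are descriptive only. Gng3 stood at 238, 239 and 172 RPM in the UNC0642 libraries, of which library 3 lay with the wild type and libraries 1 and 2 with the saline-treated mutant. Rgs5 stood at 36.0, 36.3 and 44.8, with library 3 again the nearest to the wild type. Over the division, the 4 libraries on the wild-type side did not overlap the other 5 for 15 of 42 members (35.7%, against 28.1% of all genes), among them Gnas, Gnai1, Gnb2, Gng2 and Rgs7, of 9 lower on the wild-type side (21.4%, against 14.3%), and Gnal, Gnai3, Gng12, Rgs17 and Rgs5, of 6 higher there (14.3%, against 13.8%). A fit with the division as a term estimates its size from UNC0642 library 3 against UNC0642 libraries 1 and 2 alone, since the other groups lie wholly on 1 side, so that its genotype differences rest on 1 library. In that fit the genotype comparison called 0 of 42 members and 0 of 14444 genes (limma-voom), with 2 members (4.76%, against 4.92% of genes) at an unadjusted p under 0.05, namely Gna13 and Gng10. With that term Rgs5 differed by -0.28 (SE 0.17, adjusted p = 0.977), Gng4 by 0.32 (SE 0.16, adjusted p = 0.972), Gna12 by -0.21 (SE 0.18, adjusted p = 0.977) and Gng3 by -0.05 (SE 0.12, adjusted p = 0.991). Within the wild-type and saline-treated mutant groups, genotype and division cannot be told apart.

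**Figure D2:**
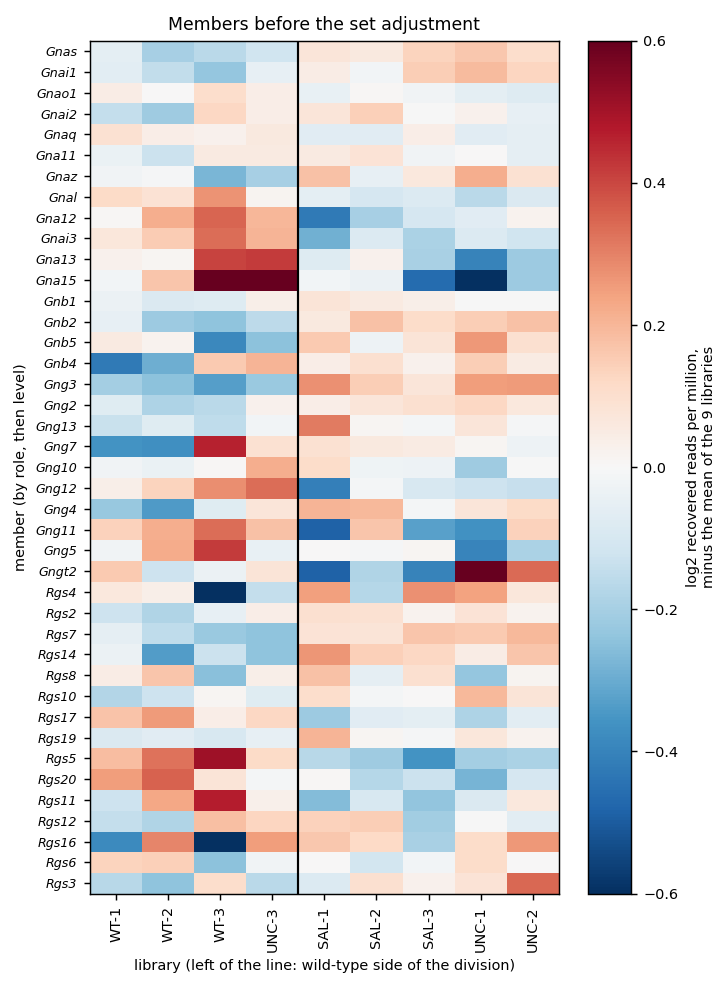
Log2 RPM of 41 members in each of the 9 libraries, minus the gene's mean over the libraries (colours end at 0.6 either way; Rgs13, at the lowest level, is left out), with WT, SAL and UNC for the wild type with saline, the Shank3 mutant with saline and the mutant with UNC0642. The line parts the 4 libraries on the wild-type side of the division, UNC0642 library 3 among them, from the other 5.

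Astrocyte markers lay higher on the wild-type side of this division, in all 4 of its libraries. The RPM of 6 astrocyte markers summed to 4591 to 6221 in the wild type and 6029 in UNC0642 library 3, against 3695 to 4103 in the saline-treated mutant and 3344 to 3662 in UNC0642 libraries 1 and 2. The 6 endothelial markers summed to 171 to 217 in the wild type and 128 to 159 in the saline-treated mutant, with 167 in UNC0642 library 3 and 142 to 155 in the other UNC0642 libraries. Mural cell markers, the class that Rgs5 is known from, summed to 93.8 to 128 in the wild type and 92.5 to 134 in the saline-treated mutant, and these groups overlapped whereas those of Rgs5 did not. The mural genes did not move together: in the limma-voom fit 5 of 6 had a positive log2 difference between genotypes, while Abcc9 had one of -0.61 (SE 0.25, adjusted p = 0.117), close to that of Rgs5. Abcc9 stood at 9.06, 11.9 and 11.4 RPM in the wild type and 6.22, 9.46 and 5.72 in the saline-treated mutant, with overlapping groups. Every gene of these 3 lists had recovered reads in every library. Genes of other marker lists were also called between genotypes in that fit, as were 11.9% of all genes. Of 12 immediate early genes (50% called), Dusp1, Junb, Ier2 and Nr4a1 rose and Egr3 and Arc fell. In the neuronal, inhibitory and deep-layer lists (33.3% of each called), Stmn2, Sst and Crym rose and Nefm, Gad1 and Bcl11b fell. The endothelial Flt1 fell by 0.68 (SE 0.17, adjusted p = 0.0276), with 16.7% of its list called. Without a gene called, all 6 oligodendrocyte markers (median log2 difference -0.692), all 4 of their precursors (median -0.34) and 7 of 8 microglial markers had negative differences, and all 8 meningeal markers had positive ones (median 0.469). The excitatory, striatal, upper-layer and red cell lists held 0 genes called. The part of these markers in the differences of Rgs5, Gna12, Gng3 or Gng4 was not tested.

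The second comparison asks how the Shank3 mutant given UNC0642 for 3 days differed from that given saline. In the deposited values 0 of 42 members and 0 of 14444 genes (0%) were called (limma, adjusted p under 0.05), and the adjusted p of every member named below was 1 in these values. The adjustment set UNC0642 library 1 with the saline-treated mutant and UNC0642 libraries 2 and 3 with the wild type. It therefore also alters the differences with the drug and the spread within the UNC0642 group. The 0 calls in the deposited values do not show that the treatments were alike. At an unadjusted p under 0.05 there was 1 member, Gng5 (2.38%), against 281 genes (1.95%, and 1.16% lower with UNC0642). The limma-voom fit to the recovered reads also called 0 members and 0 genes, with 2 members, Gna12 and Gngt2 (4.76%), and 536 genes (3.71%) at an unadjusted p under 0.05. The members' median log2 difference was 0.014, against 0.003 over all genes, with 23 above and 19 below 0. By role, 4 of 12 Gα, 3 of 4 Gβ, 6 of 10 Gγ and 10 of 16 RGS genes had the higher mean log2 value with the drug. For 6 members the groups did not overlap (14.3%, against 6.23% of all genes): Gnb4, Gng2 and Gngt2 were higher (7.14%, against 3.17%) and Gnal, Gng5 and Rgs20 lower (7.14%, against 3.06%) in the 3 UNC0642 libraries.

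Gng5, which encodes a widely expressed γ subunit, stood at 16.2, 16.0 and 16.3 in the saline-treated mutant, 12.2, 12.6 and 13.8 in the UNC0642-treated mutant and 14.4, 16.7 and 18.7 in the wild type. Every UNC0642 library was below every other library, and the log2 difference from the saline-treated mutant was -0.32 (SE 0.12) (adjusted p = 1). Before the adjustment between sets the values were 15.0, 14.8 and 15.1 RPM in the saline-treated and 11.4, 13.1 and 14.5 in the UNC0642-treated mutant, again without overlap. The limma-voom difference there was -0.20 (SE 0.14, adjusted p = 0.974).

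Rgs20, an RZ protein that acts on Gαz, stood at 37.4, 33.1 and 34.2 in the saline-treated and 30.6, 29.0 and 30.8 in the UNC0642-treated mutant, a difference of -0.21 (SE 0.10). Gnal differed by -0.13 (SE 0.07). In the recovered reads these 2 differences were close to 0, at -0.02 (SE 0.11, adjusted p = 0.988) for Rgs20 and 0.00 (SE 0.08, adjusted p = 0.997) for Gnal, and the groups overlapped. Gngt2, a γ subunit known from cone photoreceptors and blood cells, rested on 14 to 32 reads per library and stood at 1.41, 1.69 and 1.49 and 2.81, 2.08 and 1.76. Its difference was 0.41 (SE 0.22) as deposited and 0.67 (SE 0.30, adjusted p = 0.974) in the recovered reads. Gnai1 differed by 0.13 (SE 0.08) and Gng3 by 0.14 (SE 0.11), both with overlapping groups, and the sign of Gng3 turned in the recovered reads, at -0.07 (SE 0.11, adjusted p = 0.979).

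Among members that did not overlap, Gng2 stood at 229, 235 and 240.0 in the saline-treated and 242, 258 and 251 in the UNC0642-treated mutant, a difference of 0.09 (SE 0.07). Gnb4 stood at 34.7, 36.1 and 34.6 in the saline-treated and 37.2, 38.5 and 42.6 in the UNC0642-treated mutant, a difference of 0.16 (SE 0.12). In RPM, 4 members did not overlap (9.52%, against 9.69% of all genes): Gna12, Gngt2 and Rgs11 higher (7.14%, against 5.8%) and Gng5 lower (2.38%, against 3.89%) with UNC0642. Gng5 and Gngt2 were thus apart on both scales, and Gnal, Gnb4, Gng2 and Rgs20 on the deposited scale alone.

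**Figure D3:**
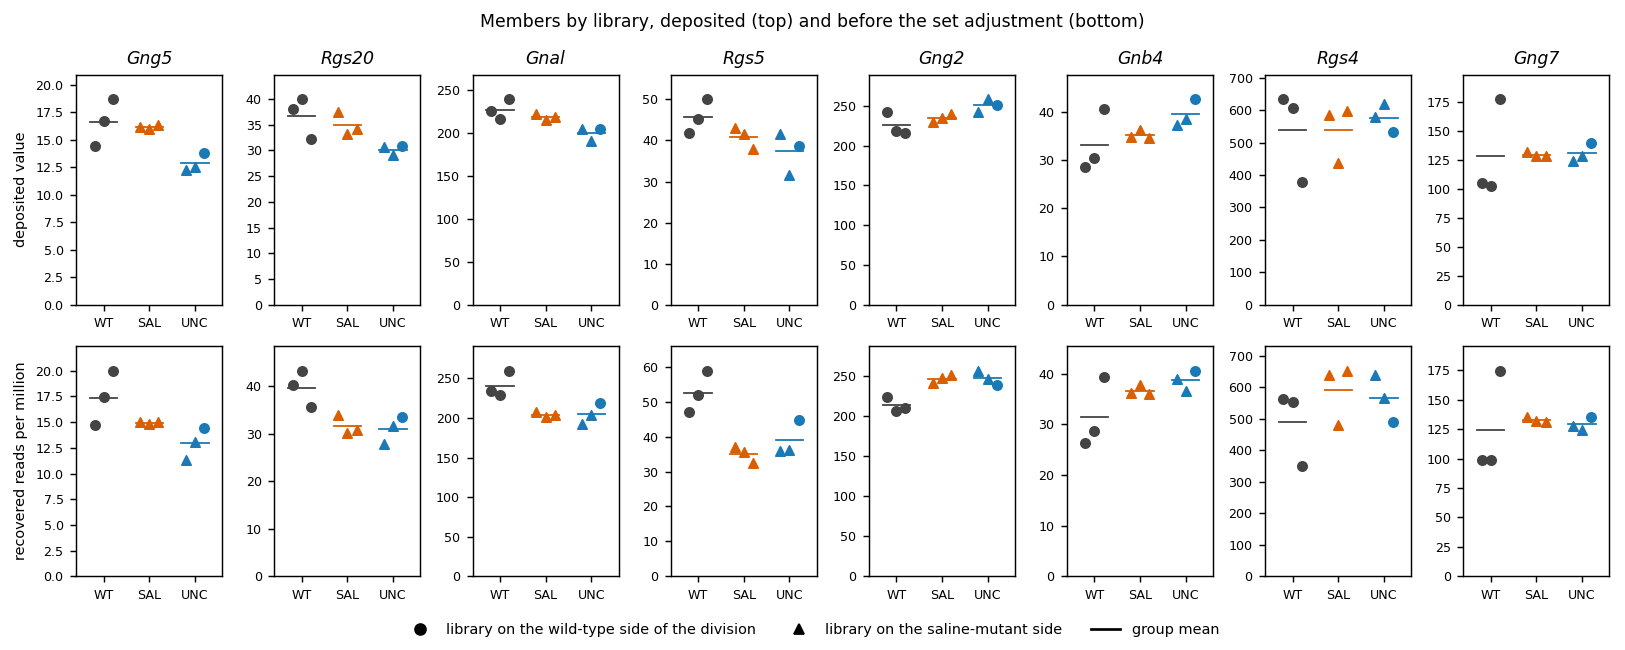
Values of 8 members in each library, as deposited (top row) and as RPM (bottom row), each axis from 0, with a line at the mean of each group of 3 (WT, wild type with saline; SAL, Shank3 mutant with saline; UNC, mutant with UNC0642). Round points mark libraries on the wild-type side of the division; Gng5 lies lower in the UNC libraries than in the SAL libraries in both rows, Rgs20 and Gnal in the top row only.

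Within the side of the division that holds all 3 saline-treated mutant libraries and UNC0642 libraries 1 and 2, the limma-voom fit again called 0 of 42 members and 0 of 14444 genes, with 3 members (7.14%, against 5.91% of genes) at an unadjusted p under 0.05. These were Gna12 at 0.21 (SE 0.10, adjusted p = 0.828), Gna13 at -0.22 (SE 0.09, adjusted p = 0.828) and Gngt2 at 0.81 (SE 0.36, adjusted p = 0.828). Gna12 and Gna13 form 1 class, and their differences had opposite signs. Gng5 differed by -0.28 (SE 0.14, adjusted p = 0.834) there. The side was chosen from these same reads, which can make the spread within it small, so that these p-values are descriptive only.

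The third comparison sets the UNC0642-treated mutant against the wild type. The adjustment between sets bears on its deposited values too, since it splits the UNC0642 group. In the deposited values 0 of 42 members and 0 of 14444 genes (0%) were called (limma), and the smallest adjusted p of a member was 0.576. At an unadjusted p under 0.05 there were 7 members (16.7%, against 8.57% of all genes): Gnb4, Gng3 and Gng4 higher (7.14%, against 3.88%), and Gnal, Gng5, Rgs20 and Rgs5 lower (9.52%, against 4.69%) in the treated mutant. The members' median difference was 0.043, against 0.004 over all genes. For 7 members the groups did not overlap (16.7%, against 11.7% of all genes), Gng2 and Rgs2 higher (4.76%, against 5.85%) and Gnal, Gng5, Gng11, Rgs5 and Rgs20 lower (11.9%, against 5.84%).

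Gng5 differed by -0.35 (SE 0.12), Rgs20 by -0.28 (SE 0.10), Rgs5 by -0.29 (SE 0.11) and Gnal by -0.18 (SE 0.07), with every UNC0642 library below every wild-type library. Gng4 differed by 0.22 (SE 0.10) and Gnb4 by 0.26 (SE 0.12), and for both of them wild-type library 3 lay within the range of the UNC0642 libraries. Rgs5 stood at 41.7, 31.5 and 38.8 with UNC0642, Gng4 at 54.3, 64.8 and 62.6. The deposited fit gave Gng2 a difference of 0.15 (SE 0.07) and Rgs2 one of 0.11 (SE 0.08). In the recovered reads 0 members and 8 genes (0.0554%) were called by limma-voom, or 0 members and 3 genes (0.0208%) with the division as a term. Without that term 11 members (26.2%, against 19.3% of genes) had an unadjusted p under 0.05. This comparison and the previous ones share libraries, so their values for a gene are not independent.

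**Figure D4:**
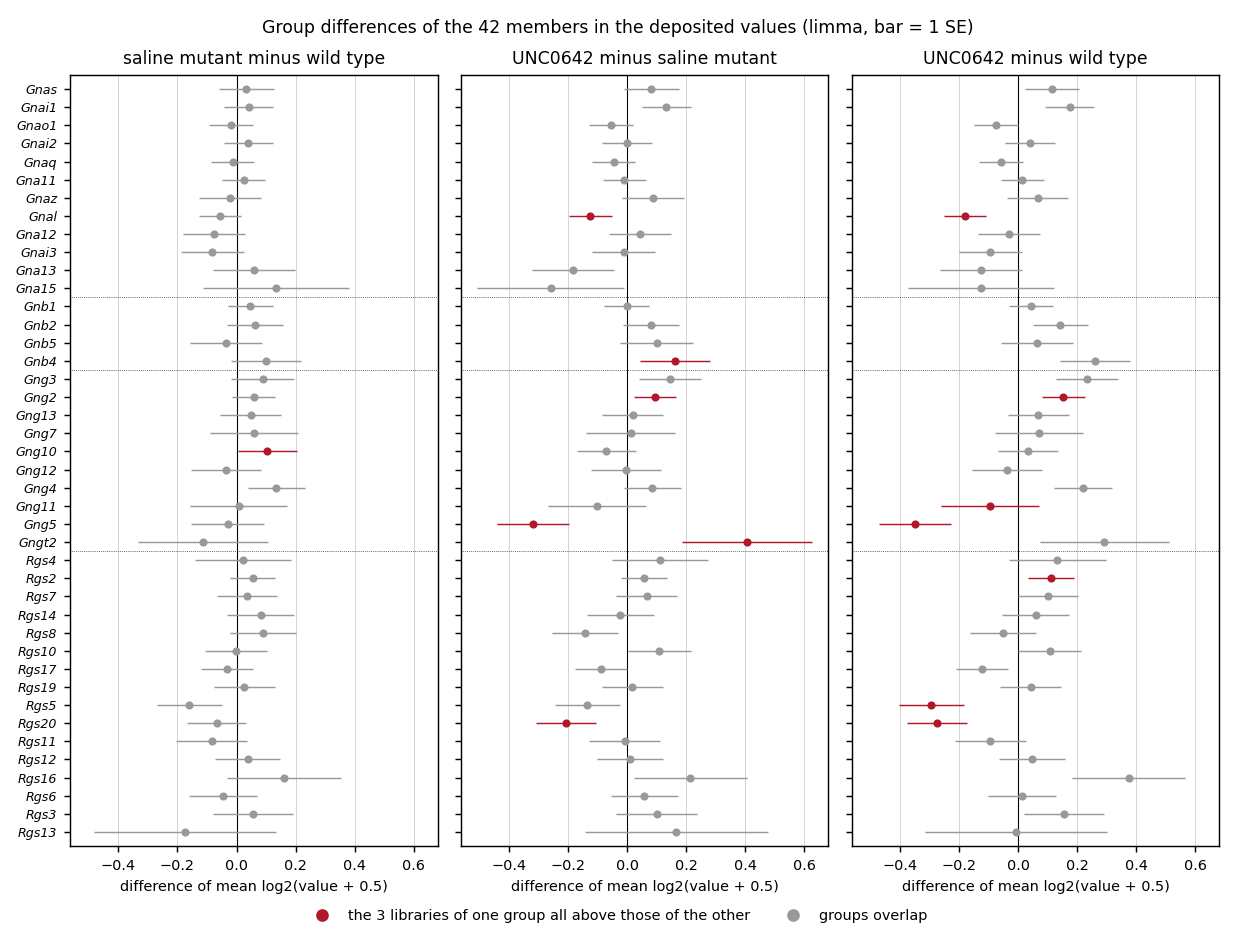
Log2 difference of each of the 42 members in the 3 comparisons of the deposited values (limma, log2 of value + 0.5; bars are 1 SE), ordered by role and level. Red points mark members whose 3 libraries in one group all lie above those of the other: 1, 6 and 7 members from left to right, with none called at an adjusted p under 0.05.

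In the deposited values, the UNC0642 libraries were the 3 highest of all 9 for 1 member, Gng2 (2.38%, against 1.77% of genes). They were the 3 lowest for 3 members, Gnal, Gng5 and Rgs20 (7.14%, against 1.59%). In RPM only Gng5 of these stayed apart, at 11.4, 13.1 and 14.5 with UNC0642 and 14.7 to 20.0 in the other libraries. For Gng2, Gnal and Rgs20 the UNC0642 libraries overlapped the others in RPM. Over the 9 libraries the members' median coefficient of variation was 9.74% in the deposited values, against 10.6% over all genes. The highest deposited value was at least 1.5 times the lowest in 11 of 42 members (26.2%, against 37.7% of genes). Among them were Rgs4, Gng7, Rgs16 and Gna13, beside low members such as Gna15, Gngt2 and Rgs13, which rested on few reads. This ratio was taken after the adjustment between sets, and members were not counted by it in RPM.

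Of the other genes of the pathway, 30 had a row: R7 anchors, chaperones and GoLoco proteins of Gα, receptor kinases and arrestins, adenylyl cyclases, phospholipases C-β and GIRK channels. In the deposited values limma called 0 of 30 in each comparison. In the saline-treated mutant against the wild type, 10 of 30 had the higher mean log2 value and 0 had an unadjusted p under 0.05. The adenylyl cyclases had the lower mean log2 value in the mutant for 7 of 9 genes, with the smallest p for Adcy4 at -0.32 (SE 0.27). The other smallest p in each list belonged to Rgs7bp, which anchors R7 proteins at the membrane, at -0.05 (SE 0.09), Gpsm1 at 0.08 (SE 0.10), Grk4 at -0.29 (SE 0.24), Plcb3 at 0.11 (SE 0.17) and Kcnj6 at -0.15 (SE 0.13).

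In the recovered reads the limma-voom fit called 3 of 30 pathway genes between genotypes (10%, against 11.9% of all genes), and 12 had an unadjusted p under 0.05 (40%, against 32.3%). The receptor kinase Grk4 fell from 13.8, 17.9 and 21.8 RPM in the wild type to 6.93, 7.88 and 7.39 in the saline-treated mutant, a log2 difference of -1.24 (SE 0.29, adjusted p = 0.0238). Among the cyclases Adcy9 fell by 0.39 (SE 0.11, adjusted p = 0.0405) and Adcy1 by 0.22 (SE 0.07, adjusted p = 0.0478), with 4 of 9 differences positive and 5 negative. Grk4 stood at 7.36, 6.56 and 16.2 RPM in the UNC0642 libraries, of which library 3 lay among the wild-type libraries. With the division as a term 0 of 30 were called, with 1 at an unadjusted p under 0.05, Plcb3. The other comparisons called 0 of 30 in the recovered reads, with 1 at an unadjusted p under 0.05 for UNC0642 against the saline-treated mutant (3.33%, against 3.71%) and 4 against the wild type (13.3%, against 19.3%).

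With UNC0642 against the saline-treated mutant, 10 of 30 pathway genes had the higher mean log2 value as deposited. The smallest p in each list was that of Rgs7bp at -0.10 (SE 0.09), Gpsm2 at -0.11 (SE 0.13), Grk4 at -0.29 (SE 0.24), Adcy9 at -0.17 (SE 0.11), Plcb2 at 0.24 (SE 0.19) and Kcnj6 at 0.11 (SE 0.13). Against the wild type, 11 of 30 had the higher mean log2 value with UNC0642, and 2 (6.67%, against 8.57% of all genes) had an unadjusted p under 0.05, the receptor kinase Grk4 at -0.58 (SE 0.24) and the cyclase Adcy9 at -0.26 (SE 0.11), both with an adjusted p of 0.576. Rgs7bp at -0.15 (SE 0.09), Pcp2 at -0.29 (SE 0.27), Plcb2 at 0.22 (SE 0.19) and Kcnj9 at 0.10 (SE 0.09) had the smallest p of the other lists.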

How the data were processed

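RNA from 9 prefrontal cortex libraries was read from 1 deposited matrix of 14444 genes, equal to the 9 single-library files. Per the labels, a stranded ribosomal-depletion kit was used; cutadapt, TopHat2, HTSeq and the mm9 build are named in the submitters' processing notes, without versions. The values are a signal that the authors deposited under the name CPM. From the values themselves, it is adjusted between 2 sets of libraries, a step that the sources used here do not describe. Whole reads were recovered by solving each gene for whole numbers in all 9 libraries (tolerance 0.02 reads, largest distance 4.1e-05 reads), and the method was tested on simulated data.

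The deposited signal was tested with limma 3.58.1 (R 4.3.3, intensity trend) on log2 of value + 0.5 over all 9 libraries and all genes, without a filter, with Benjamini-Hochberg adjustment and a threshold of 0.05. The recovered reads were tested with limma-voom. Group was the only term unless stated. Lengths are unions of exons in GENCODE M21 (GRCm38), matched by symbol for 13895 genes, a later build than mm9, so that no coordinate was carried between them. Motifs were searched in the 250 bases before the first RefSeq start listed for each gene (GRCm38.p6).

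The members, pathway lists and marker lists were chosen with earlier results of these data known, and no list was tested as a set. Members are given library by library where they had 1 of the 6 smallest p-values of a comparison, 1 of the 3 highest levels of a role, or were Rgs2, Rgs4, Rgs5, Rgs10, Rgs14, Gnal, Gng7 or Gng11; Gna12, and the members named beside counts, were added after their values were seen. Of each pathway list the gene of smallest p is given; 1 further list is not reported here. The limits of precision are the 3 libraries per group and, for low members such as Rgs13, few reads.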

Additional observations from a re-analysis of the deposited data

How the results depend on the processing

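In the deposited values 0 genes and 0 members were called under either other pseudocount (0.25 or 1), with a filter on low values, with median-of-ratios factors, at an adjusted p under 0.1 and with the replicate number as a block. These settings share the adjustment between sets, so they cannot show whether the groups were alike. Of 330 alternative values of the members of smallest p, 318 kept their direction and their side of the threshold, 6 turned in sign and 6 passed the threshold (Rgs5, Gng4 and Gng3 between genotypes, in both limma-voom fits to the recovered reads). With the 2 groups alone, 5 genes and 0 members were called between saline-treated mutant and wild type. On the recovered reads that comparison called 1725 genes with 4 members, or 1797 with 5 members under median-of-ratios factors, Gnai3 being the fifth. UNC0642-treated mutant against wild type called 8 genes on the recovered reads, 10 with median-of-ratios factors and 3 with the division as a term, 0 of them members; leaving out 1 library at a time in the deposited values gave 0 to 4 genes, the 4 without UNC0642 library 1. Between genotypes, Rgs16 turned to -0.0327 without wild-type library 3 (0.4085 without wild-type library 2), Gnb4 to -0.0001 without wild-type library 1, and Gng3 to -0.0483 with the division as a term. With UNC0642 against the saline-treated mutant, Gnal turned to 0.0046 on the recovered reads, and Gng3 to -0.0714, or -0.0872 with median-of-ratios factors. The cause was not tested. The replicate numbers do not pair the libraries, with correlations of same-numbered libraries from -0.19 to 0.307; under the replicate block 0 genes were called in each comparison. Few reads limit Rgs13 (2 to 18 per library), Gngt2 (14 to 32) and Gna15 (13 to 53).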
